A study of Mus musculus with 18 samples.

Results

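Bone marrow-derived macrophages (BMM) that lack the nuclear receptor Nur77 were compared with wild-type BMM after both had been given interleukin-4 (IL-4). The comparison uses 6 of the 18 arrays of the series, namely the 3 arrays labelled as Nur77-KO BMM with IL-4 and the 3 labelled as WT BMM with IL-4. Both genotypes were C57BL/6, were grown from femur and tibia marrow for 8 days in medium with L929-conditioned medium and received 50 ng/ml IL-4 for 8 h, so the groups differ in genotype alone as far as the labels say. The labels call the Nur77-KO genotype a knockout and give no more on the allele, and the marrow came in batches of 3 mice of each genotype. The labels do not say whether an array holds 1 mouse or a pool, and the p-values therefore measure the spread between arrays, pooled over all 18. The remaining 12 arrays, with no stimulus (0 h) or with LPS (100 ng/ml, 8 h), were used to estimate the spread and to set the genotype difference with IL-4 beside that in other states.

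Nur77, encoded by Nr4a1, is an orphan nuclear receptor that is induced early after many stimuli and binds DNA as a monomer at the NBRE element. IL-4 signals through its receptor and the transcription factor STAT6 and moves macrophages to alternative activation, in which Arg1, Retnla, Chil3 and Mrc1 are the usual marker genes in the mouse. Irf4 acts downstream of STAT6 in this state, and Il4i1 encodes a secreted amino acid oxidase that IL-4 induces.

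The arrays were Illumina MouseWG-6 v2 bead arrays with 45281 probes. Of 34885 probes with 1 gene symbol, 16587 were detected (detection p under 0.05) on at least 1 of the 6 IL-4 arrays, and their brightest probe per gene gave 11008 genes. All levels below are the authors' normalized log2 intensities, which compare arrays for 1 probe but not 1 gene with another. Detected probes numbered 13883 to 15369 per Nur77-KO array and 13580 to 15695 per WT array. Of 12 macrophage markers 10 were among the tested genes, and 9 of them were detected on all 6 arrays. A further 2973 detected probes without a listed gene were left out, and 20 of them were called (0.673%). The Nr4a1 probe was not detected on any of the 18 arrays, so its level does not check the genotype labels. The Nr4a3 probes were not detected either, and Nr4a2 was detected on 1 Nur77-KO array and on 0 WT arrays with IL-4.

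Replicate 1 of both genotypes stood apart from replicates 2 and 3. Across the 11008 genes, Nur77-KO replicate 1 correlated at r = 0.957 and 0.955 with the other Nur77-KO arrays, which correlated at 0.992 with each other, and at 0.971, 0.964 and 0.962 with WT replicates 1, 2 and 3, so that it was closer to each WT array than to the arrays of its own genotype. Arg1, which encodes arginase 1, was at 11.46 on Nur77-KO replicate 1 and 11.50 on WT replicate 1, against 13.31 and 13.54 on the other Nur77-KO arrays and 13.64 and 13.49 on the other WT arrays. The chemokine gene Ccl5 ran the other way, at 11.12 on Nur77-KO replicate 1 and 12.22 on WT replicate 1, against 7.17 and 6.51 on the other Nur77-KO arrays and 6.04 and 5.50 on the other WT arrays. Both replicate 1 arrays thus had less of an IL-4 gene and more of an inflammatory gene than the arrays of their own genotype.

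Nur77-KO replicate 1 also differed from the other Nur77-KO arrays in a Y-linked gene and in Xist, which is transcribed from the inactive X chromosome. Eif2s3y, on chromosome Y, was at 4.59, 9.40 and 8.91 on the Nur77-KO arrays and at 4.50, 4.67 and 4.45 on the WT arrays. Xist was at 11.42, 9.51 and 9.49 on the Nur77-KO arrays and at 11.44, 11.17 and 11.28 on the WT arrays. Npy, which encodes neuropeptide Y, followed the same arrays, at 4.61, 9.88 and 9.94 on the Nur77-KO arrays and 5.35, 4.56 and 4.57 on the WT arrays. For these genes the array labelled Nur77-KO replicate 1 lay with the WT arrays. It did not for Gdf3 and Gfpt1, whose values follow. The part of these array differences in the results was not tested, and the counts of called genes, the gene lists and the genes the results turn on are also given without replicate 1 of both genotypes.

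With all arrays, 5 of the 11008 genes were called between Nur77-KO and WT BMM with IL-4, at an adjusted p under 0.05 in limma (0.0454% of genes). Gfpt1, Tmem181a and Prickle2 rose and Gdf3 and Epm2aip1 fell in Nur77-KO BMM. All 5 were also called when replicate 1 of both genotypes was left out. In limma with the 6 IL-4 arrays alone none was called (adjusted p = 0.185 for Gdf3 and 0.994 to 0.999 for the others). The main fit pools groups of unequal spread. The root mean square SD over genes for Nur77-KO and WT was 0.43 and 0.45 with IL-4, 0.18 and 0.29 without stimulus, and 0.38 and 0.39 with LPS. At an unadjusted p under 0.05, 591 genes passed, where 550.4 are expected if no gene differs. The study's methods use an unadjusted p under 0.05 with a fold change of at least 1.4, and 403 genes (3.66%) were past these thresholds, 222 higher and 181 lower in Nur77-KO BMM.

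Gdf3, which encodes a TGF-beta family ligand, had the smallest p. It lies at chr6:122605403-122610087 (GRCm38.p6). Its level was 7.82, 7.69 and 7.92 on the Nur77-KO arrays and 9.49, 9.46 and 9.47 on the WT arrays. The arrays of each genotype lay close together, replicate 1 included, and the groups did not overlap. Gdf3 averaged 7.81 ± 0.12 on the Nur77-KO arrays and 9.48 ± 0.02 on the WT arrays (SD, n = 3 each), so that it was 3.17-fold lower in Nur77-KO BMM (log2 fold change -1.67, SE 0.19, adjusted p = 0.00274 in limma). Without replicate 1 of both genotypes it was -1.66 (adjusted p = 0.0103). It was called at a similar size without stimulus (-1.68, adjusted p = 0.00175) and with LPS (-1.47, adjusted p = 0.00452), on arrays that the IL-4 comparison does not use for its difference.

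Gfpt1, the first and rate-limiting enzyme of the hexosamine pathway, lies at chr6:87042846-87092207. It was at 10.10, 10.35 and 10.29 on the Nur77-KO arrays and at 8.91, 7.93 and 7.69 on the WT arrays. Every Nur77-KO array was above every WT array, and WT replicate 1 was the highest of the WT arrays. The log2 fold change was 2.07 (SE 0.27, limma, adjusted p = 0.00397), or 4.20-fold higher in Nur77-KO BMM, and 2.51 without replicate 1 of both genotypes (adjusted p = 0.000833). The 5 other tested genes of the hexosamine pathway list, among them Ogt and Uap1, were not called, and the median of the 6 was 0.06. Gfpt1 was also called without stimulus (2.22, adjusted p = 0.00175) and with LPS (1.89, adjusted p = 0.00743). Its 2 dimmer probes did not show the difference, at log2 fold changes of -0.27 and 0.35, and each was detected on 1 of the 6 arrays.

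Tmem181a, a gene for a membrane protein that has 2 pseudogene copies nearby on chromosome 17, was at 10.13, 10.58 and 10.40 on the Nur77-KO arrays and at 9.41, 9.16 and 9.15 on the WT arrays. The groups did not overlap. The log2 fold change was 1.13 (SE 0.14, limma, adjusted p = 0.00397), 1.34 without replicate 1 of both genotypes, and 1.17 without stimulus, where it was called as well (adjusted p = 0.00175). With LPS it was 0.57 and was not called (adjusted p = 0.232). A second probe gave a like value, 1.19, that was not called among all probes (adjusted p = 0.292). Signal from the copies cannot be told apart from that of Tmem181a. In the fit of all probes 6 of 16587 were called (0.0362%).

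Prickle2, which encodes a planar cell polarity protein, was at 6.40, 6.39 and 6.18 on the Nur77-KO arrays and was not detected on any WT array, where its values were 5.57, 5.19 and 5.41. It was at least 1.75-fold higher in Nur77-KO BMM, where the bound divides the Nur77-KO mean by the lowest signal among detected probes on each WT array (limma, adjusted p = 0.0311). Epm2aip1, a gene named for its product's binding to laforin, was at 5.32, 5.44 and 5.21 on the Nur77-KO arrays and at 6.35, 6.78 and 6.50 on the WT arrays. It was detected on 1 Nur77-KO array and on all 3 WT arrays, and its log2 fold change was -1.22 (SE 0.20, adjusted p = 0.0449). Its 2 other probes stood at 0.14 and 0.07 and were not called. Prickle2 and Epm2aip1 were near the detection limit and lost their call in 11 and 12 of 20 alternatives.

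**Figure D1:**
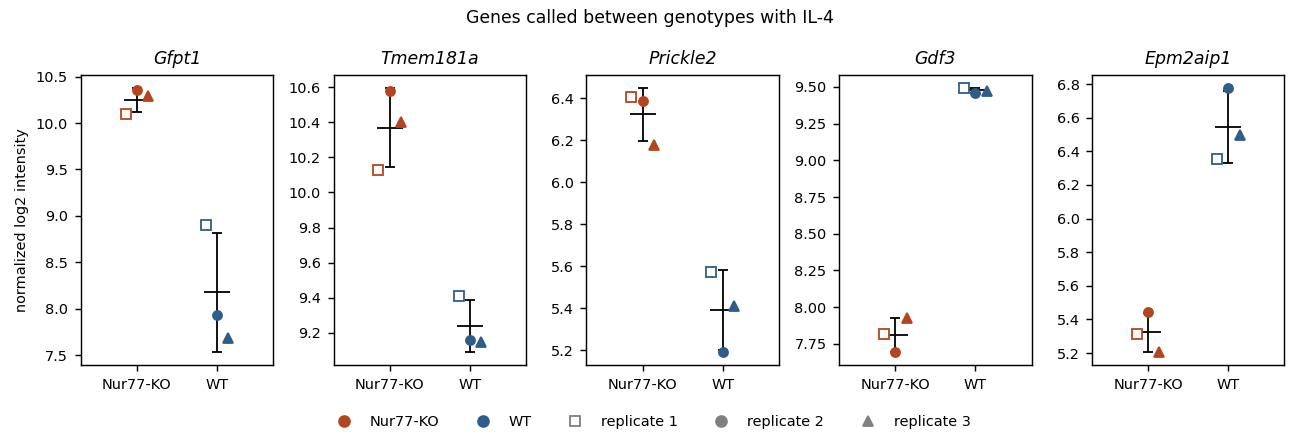
Normalized log2 intensity of the 5 called genes on each IL-4 array, Nur77-KO left and WT right in each panel. Symbols mark the replicate number, the horizontal mark is the mean and the bar 1 SD (n = 3). In every panel the Nur77-KO arrays lie on 1 side of the WT arrays, as for Gdf3 with 7.69 to 7.92 against 9.46 to 9.49 on the WT arrays.

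Slides 4 and 6 carried both genotypes with IL-4. On slide 4 (Nur77-KO replicate 1 and WT replicate 2) the difference was 2.16 for Gfpt1, 0.97 for Tmem181a, 1.21 for Prickle2, -1.64 for Gdf3 and -1.46 for Epm2aip1. On slide 6 (replicate 3 of both) it was 2.60 for Gfpt1, 1.25 for Tmem181a, 0.77 for Prickle2, -1.55 for Gdf3 and -1.29 for Epm2aip1. As the groups did not overlap for any of the 5 genes, the direction on each slide was fixed beforehand and is no separate check. With slide as a fixed block none of the 5 was called, at adjusted p = 0.0775 for Gfpt1 and Tmem181a, 0.472 for Prickle2, 0.0577 for Gdf3 and 0.0664 for Epm2aip1 in limma, and the log2 fold changes were 2.04 for Gfpt1, 1.13 for Tmem181a, 0.89 for Prickle2, -1.79 for Gdf3 and -1.36 for Epm2aip1.

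Without replicate 1 of both genotypes, 36 genes were called in limma (0.327% of the 11008), 18 higher and 18 lower in Nur77-KO BMM. The spread was smaller without it, and the root mean square SD over genes was 0.43 for Nur77-KO and 0.45 for WT with 3 arrays each, and 0.21 for Nur77-KO and 0.27 for WT with 2. Of the 36 genes, 30 had the same sign between the replicate 1 arrays, and 20 had overlapping groups once replicate 1 was included. Groups without overlap were found for 7.66% of all genes, and the share of all genes with the same sign was not counted. The 36 genes were chosen on replicates 2 and 3, so a lack of overlap rests mainly on where replicate 1 lies. Past the methods' thresholds were 619 genes (5.62%) without replicate 1, 403 with it and 217 in both sets. Among the genes called only without it were IL-4 response genes, MHC class II genes, matrix genes and Pdpn. On the arrays of replicates 2 and 3, Eif2s3y was at 9.40 and 8.91 for Nur77-KO and at 4.67 and 4.45 for WT. Genotype and the sex of the mice therefore cannot be told apart in this fit. The same holds without stimulus, where Eif2s3y was at 9.05 to 9.68 on the Nur77-KO arrays and 4.53 to 4.71 on the WT arrays.

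**Figure D2:**
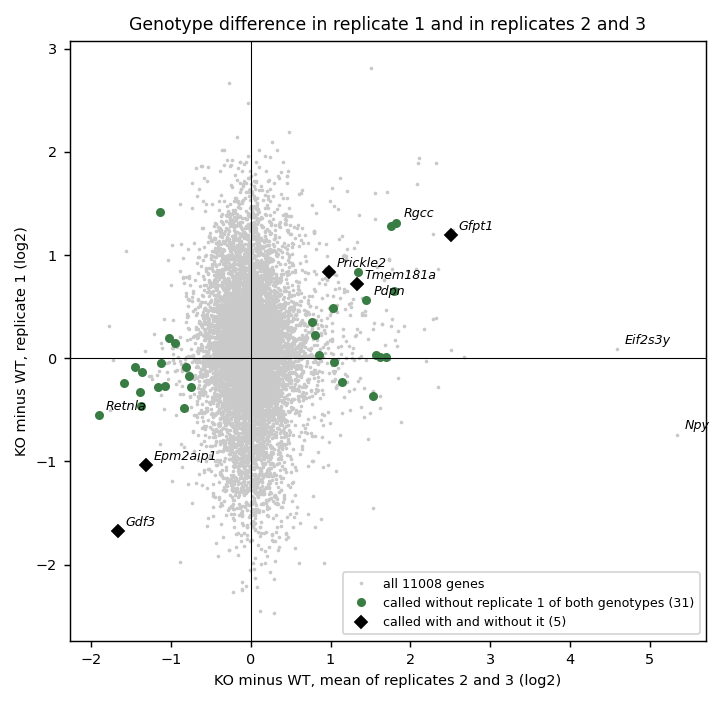
Nur77-KO minus WT in log2, with the mean of replicates 2 and 3 on the horizontal axis and replicate 1 on the vertical axis, 1 point per gene. The 5 genes called with and without replicate 1 (black) lie away from 0 on both axes, with Gfpt1 at 2.51 and 1.19, while Npy stands at 5.34 and -0.74.

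The IL-4 response genes were spread to both sides of 0 and tended lower without replicate 1 of both genotypes. Of 25 markers of alternative activation 23 were tested, with 9 above 0, 14 below and a median of -0.12 (all tested genes 0.01). Past the methods' thresholds was 1 gene, against 3.66% of all genes. Retnla, which encodes the secreted protein RELM-alpha, was that gene. Without replicate 1 of both genotypes 6 were above 0 and 17 below, the median was -0.33 (all genes -0.01), and Retnla and Rnase2a, an eosinophil-associated ribonuclease gene, were called lower.

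The 300 bases around the start of Retnla and of the MHC class II gene H2-Eb1 are shown because both genes are called without replicate 1 of both genotypes and their windows hold the letters of a STAT6-type site or of the NBRE. They are from RefSeq (GRCm38.p6), run from 250 bases before the start site and are written 5′ to 3′ on the gene's strand, which is the plus strand for both. The capitals in Retnla (chr16:48842359-48842658) mark a STAT6-type match, TTC and GAA with any 4 bases between them, that begins 145 bases before the start. The capitals in H2-Eb1 (chr17:34305617-34305916) mark an NBRE, AAAGGTCA, on the opposite strand, 238 bases before it.
Retnla: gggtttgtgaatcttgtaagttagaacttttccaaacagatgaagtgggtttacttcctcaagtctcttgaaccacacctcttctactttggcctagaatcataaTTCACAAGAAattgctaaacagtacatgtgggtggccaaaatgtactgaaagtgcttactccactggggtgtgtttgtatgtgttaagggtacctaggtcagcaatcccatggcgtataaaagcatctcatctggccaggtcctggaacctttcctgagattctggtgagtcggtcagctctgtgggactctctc
H2-Eb1: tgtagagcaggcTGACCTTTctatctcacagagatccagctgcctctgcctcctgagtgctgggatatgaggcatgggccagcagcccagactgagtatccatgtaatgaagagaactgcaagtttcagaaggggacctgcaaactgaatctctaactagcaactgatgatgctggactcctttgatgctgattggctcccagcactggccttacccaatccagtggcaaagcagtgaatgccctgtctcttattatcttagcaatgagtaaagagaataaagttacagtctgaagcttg
Both strands of the windows of 30 of the called genes were searched. The NBRE was in 1 of their 34 windows and in 0.966% of the 11393 windows of tested genes, and the STAT6-type letters were in 3 windows (Retnla, Mpo and Spint1) and in 5.64% of all. A match is a description of these letters and does not show binding.

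Retnla was at 9.75, 10.15 and 10.12 on the Nur77-KO arrays and at 10.31, 12.05 and 12.03 on the WT arrays. The groups did not overlap, and WT replicate 1 lay just above the Nur77-KO arrays. Its log2 fold change was -1.45 (SE 0.35) and was not called (limma, adjusted p = 0.330), while without replicate 1 of both genotypes it was -1.91 (SE 0.22, adjusted p = 0.00214), 3.75-fold lower. Without stimulus Retnla was at 5.02 to 5.24 on the Nur77-KO arrays and 4.89 to 5.46 on the WT arrays, and it was detected on 1 of the 6 arrays.

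Il4i1 was at 11.02, 10.95 and 11.00 on the Nur77-KO arrays and at 11.52, 12.63 and 12.85 on the WT arrays. The groups did not overlap, the Nur77-KO arrays lay close together, and WT replicate 1 was again the lowest WT array. It stood at -1.34 (SE 0.41, limma, adjusted p = 0.580) and -1.76 without replicate 1 of both genotypes (adjusted p = 0.188). Irf4 was at 6.74, 7.29 and 7.50 on the Nur77-KO arrays and at 7.21, 8.64 and 8.89 on the WT arrays, so the groups overlapped through WT replicate 1. Its log2 fold change was -1.07 (adjusted p = 0.634), and it was called without replicate 1 of both genotypes at -1.37 (SE 0.24, adjusted p = 0.0249).

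Rnase2a was at 8.68, 10.16 and 10.09 on the Nur77-KO arrays and at 8.81, 11.62 and 11.36 on the WT arrays. The replicate 1 arrays lay together and below the rest, and without them the log2 fold change was -1.36 (SE 0.15, limma, adjusted p = 0.00107), against -0.95 with them (adjusted p = 0.936). Tgfbi, a secreted matrix protein gene, was at 9.57, 10.11 and 10.23 on the Nur77-KO arrays and 9.50, 11.58 and 11.40 on the WT arrays and was not called with replicate 1 (-0.86) or without it (-1.32, adjusted p = 0.239).

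Without stimulus Irf4 and Rnase2a were detected on 0, Retnla on 1 and Il4i1 on 5 of the 6 arrays, so that only Il4i1 could have shown a genotype difference there, and its log2 fold change was 0.00. The difference of the genotype effects, IL-4-treated minus unstimulated, was -1.40 for Retnla (unadjusted p = 0.0127 in limma), -1.21 for Irf4 (unadjusted p = 0.0250), -1.34 for Il4i1 (unadjusted p = 0.0363) and -0.85 for Rnase2a (unadjusted p = 0.275), each with an adjusted p of 0.999. For the genes that were not detected without stimulus this subtracts background values. A genotype effect particular to IL-4 was therefore not established for these genes. The unstimulated arrays were taken at 0 h, so time in culture and IL-4 cannot be told apart in this difference.

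Chil3, the gene for the chitinase-like protein Ym1, was at 11.96, 12.02 and 11.85 on the Nur77-KO arrays and at 11.18, 11.28 and 10.74 on the WT arrays, without overlap, with 0.88 between the genotypes (SE 0.44, limma, adjusted p = 0.918) and 0.93 without replicate 1 of both genotypes (adjusted p = 0.832), in a background of 4.12% of genes whose Nur77-KO arrays all lay above the WT arrays. Chil4, its neighbour and close paralog whose probe may cross-hybridize, stood at 0.85 (adjusted p = 0.918), also without overlap. Without stimulus Chil3 differed by 1.84 (adjusted p = 0.160) and with LPS by 1.50 (adjusted p = 0.290), so it was higher in Nur77-KO BMM in all 3 states and was called in none. Arg1 had a log2 fold change of -0.11 (SE 0.52) with all arrays and -0.14 (SE 0.22) without replicate 1 of both genotypes, and Mrc1, the mannose receptor gene, of 0.07 (SE 0.26).

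Of 18 genes of the IL-4 receptor and STAT6 pathway 17 were tested, with 6 above 0, 11 below and a median of -0.19. These figures were 3, 14 and -0.25 without replicate 1 of both genotypes. Irf4 (lower) and Il13ra1, a receptor subunit for IL-13 (higher, 0.61), were past the methods' thresholds, as were 3.66% of all genes. Il13ra1 was at 6.31, 7.00 and 6.93 on the Nur77-KO arrays and 6.30, 6.34 and 5.78 on the WT arrays, which overlap through Nur77-KO replicate 1.

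**Figure D3:**
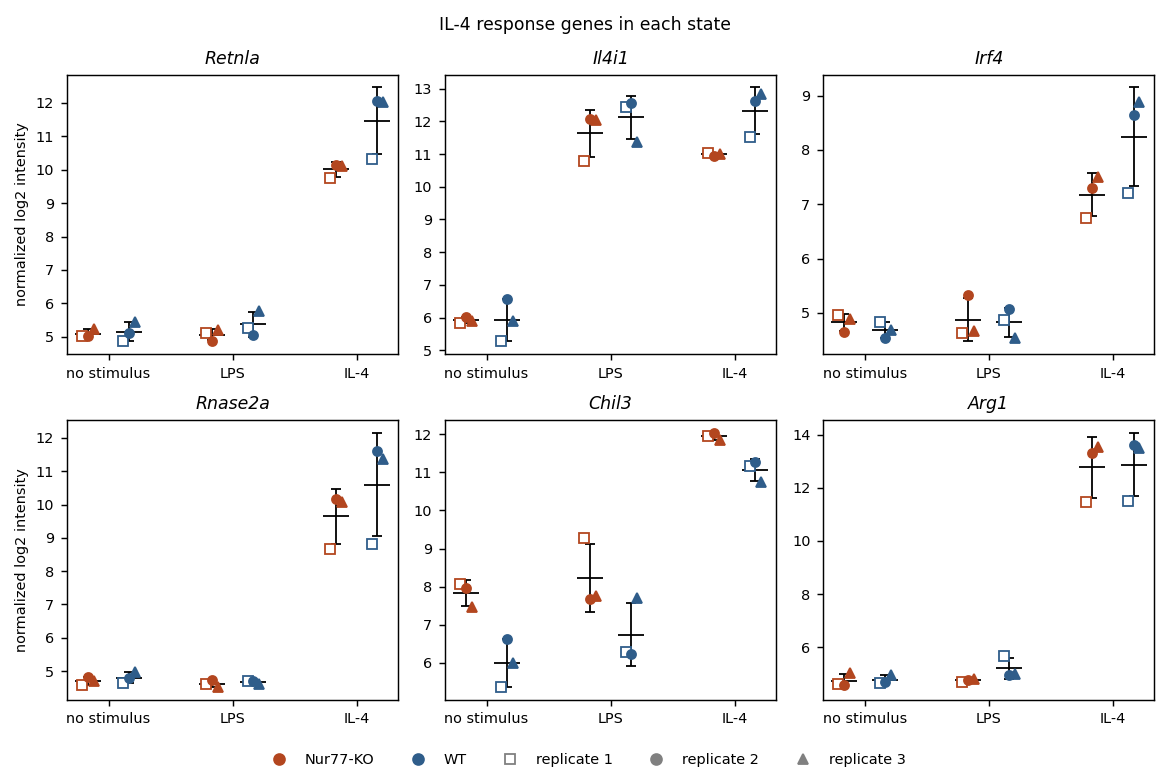
Normalized log2 intensity of 6 IL-4 response genes without stimulus, with LPS and with IL-4, Nur77-KO left of WT in each pair, with 1 symbol per array, the mean and 1 SD (n = 3). Retnla, Irf4, Rnase2a and Arg1 are high only with IL-4, and the open squares of replicate 1 lie below the other IL-4 arrays for Arg1 (11.46 on the Nur77-KO array, 11.50 on the WT array).

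Genes of MHC class II presentation, which macrophages use to show peptides to CD4 T cells, mostly stood lower in Nur77-KO BMM. The log2 fold change was negative for 9 of 10 tested genes and had a median of -0.65. Past the thresholds were 4, all lower, against 1.64% of all genes, and the Nur77-KO arrays lay below all WT arrays for 5, against 3.53% of all genes. None was called with all arrays in limma, while without replicate 1 of both genotypes 5 were past the thresholds lower (2.62% of all genes) and 2 were called. H2-Eb1, a class II beta chain gene, was at 9.68, 9.24 and 8.82 on the Nur77-KO arrays and at 9.96, 10.22 and 10.16 on the WT arrays. The groups did not overlap, and Nur77-KO replicate 1 was closest to WT. Its log2 fold change was -0.87 (SE 0.18, adjusted p = 0.189), and it was called without replicate 1 of both genotypes at -1.16 (adjusted p = 0.00891).

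Cd74, the invariant chain, was at 11.41, 11.05 and 10.88 on the Nur77-KO arrays and at 11.69, 11.95 and 12.13 on the WT arrays, without overlap. Its log2 fold change was -0.81 (limma, adjusted p = 0.189), and -1.07 without replicate 1 of both genotypes (adjusted p = 0.0177). H2-Ab1 and H2-DMa, which encode a beta chain and part of the peptide-loading molecule, stood at -0.69 and -0.61, and Ciita, the class II transactivator, at -1.04 with overlapping arrays (adjusted p = 0.918). H2-Eb1 and Cd74 were called without stimulus as well (-1.29, adjusted p = 0.00739 and -1.03, adjusted p = 0.0289), and with LPS they stood at -0.42 and -0.14. The list's median was -0.81 without stimulus and -0.07 with LPS. Under median normalization, where all genes had a median of 0.26, the values with IL-4 were -0.49 for H2-Eb1, -0.41 for Cd74, -0.33 for H2-Ab1 and -0.22 for H2-DMa.

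Among 19 tested NF-kB target cytokine and chemokine genes, 5 were past the thresholds lower in Nur77-KO BMM (1.64% of all genes) and 1 higher (2.02% of all genes), and the median was -0.05. Leaving out replicate 1 of both genotypes gave 4 lower (2.62% of all genes) and 2 higher (3.01% of all genes) past the thresholds and a median of -0.04. Icam1, an adhesion molecule gene, was at 10.09, 9.45 and 9.32 on the Nur77-KO arrays and at 10.58, 10.19 and 10.26 on the WT arrays, without overlap. It had a log2 fold change of -0.72 (limma, adjusted p = 0.345) and was called without replicate 1 of both genotypes at -0.84 (adjusted p = 0.0232). Cd40 stood at -0.66, Tnf at -0.66, Nfkbia, the gene of an NF-kB inhibitor, at -0.55, and Il23a, which was not detected on any Nur77-KO array, was at least 1.49-fold lower. Cxcl1, a neutrophil chemokine gene, stood at 1.14. None of these genes was called with all arrays.

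Genes of neutrophil granules, which mark neutrophils and their precursors, stood higher in Nur77-KO BMM with IL-4: 9 of 10 tested markers were above 0, with a median of 0.92, and 6 were past the thresholds, all higher, against 2.02% of all genes. Only 3 of the 10 were detected on all 6 arrays. Detection on 1 array was enough to be tested, so the count of signs and the median depend partly on this filter. Without replicate 1 of both genotypes the median was 0.81 and 4 were past the thresholds, all higher (3.01% of all genes). The list's median was 1.01 without stimulus and 0.07 with LPS. None was called with all arrays in limma. S100a9, a calcium-binding protein gene, was at 11.26, 9.67 and 10.04 on the Nur77-KO arrays and at 9.57, 8.04 and 7.48 on the WT arrays. Replicate 1 was the highest array of each genotype, and the groups did not overlap. S100a9 had a log2 fold change of 1.96 (SE 0.63, adjusted p = 0.635) and its partner S100a8 of 1.59 (SE 0.43, adjusted p = 0.456), also without overlap.

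Ltf, the lactoferrin gene, was at 11.16, 8.81 and 9.40 on the Nur77-KO arrays and 9.27, 7.05 and 6.95 on the WT arrays, a log2 fold change of 2.03 (limma, adjusted p = 0.670) with overlap through WT replicate 1. Mpo, the myeloperoxidase gene, was at 7.63, 6.18 and 6.34 on the Nur77-KO arrays and at 6.80, 4.85 and 4.99 on the WT arrays. With the mean of their detected probes Ltf stood at 1.23 and Mpo at 0.70. Mpo was not detected on WT replicates 2 and 3. It was called without replicate 1 of both genotypes, at least 1.76-fold higher (adjusted p = 0.00771), and with the replicate number as a block among the IL-4 arrays (adjusted p = 0.0155), a fit that called 8 genes (0.0727%). The mean level of the 10 markers was 8.06, 6.78 and 7.02 on the Nur77-KO arrays and 7.01, 5.91 and 5.96 on the WT arrays. More cells of this type and more of this RNA per cell cannot be told apart in bulk RNA.

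Matrix genes stood higher in Nur77-KO BMM on replicates 2 and 3 and were low on replicate 1 of both genotypes. All 23 tested collagen and matrix genes were above 0, with a median of 1.00, but only 5 of the 23 were detected on all 6 IL-4 arrays. Detection on 1 array was enough to be tested. Genes that pass only through their high Nur77-KO arrays lie above 0 partly because of this filter, so the count of signs is no separate support. The list's median was 1.44 without stimulus and 0.80 with LPS. With IL-4, 2 were past the thresholds (Ogn and Ccdc80), both higher (2.02% of all genes were), and none was called with all arrays. Without replicate 1 of both genotypes the median was 1.45, 9 were past the thresholds, all higher (3.01% of all genes), and Lox, the gene for lysyl oxidase, was called. Lox was at 6.81, 11.34 and 11.26 on the Nur77-KO arrays and at 6.16, 9.49 and 9.52 on the WT arrays. Each replicate 1 array was far below its own genotype, so that its log2 fold change of 1.41 had an SE of 0.99 (limma, adjusted p = 0.946), while it was 1.80 with an SE of 0.33 without them (adjusted p = 0.0354). Over all alternatives it lay between 0.30 and 2.91.

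Col1a1, a type I collagen gene, was at 5.57, 8.58 and 8.39 on the Nur77-KO arrays and at 4.71, 6.18 and 6.11 on the WT arrays, and was not called with replicate 1 (1.85, limma, adjusted p = 0.918) or without it (2.34, adjusted p = 0.507). Bmp1, a procollagen-processing protease gene, was at 6.55, 10.77 and 10.71 on the Nur77-KO arrays and at 5.26, 8.78 and 9.17 on the WT arrays, and was called without replicate 1 of both genotypes (1.76, adjusted p = 0.00225) and with the replicate block (adjusted p = 0.00568). Over all alternatives it lay between 0.36 and 3.00, and it stood at 0.72 with the mean of its detected probes. Of the stromal and fibroblast markers, which overlap this list, all 9 tested were above 0, and 3 of the 9 were detected on all 6 arrays, so the same limit of the filter holds. Their mean levels were 5.79, 9.10 and 8.84 on the Nur77-KO arrays and 5.35, 7.33 and 7.24 on the WT arrays. These 9 had a median of 1.27 with IL-4, 1.57 without stimulus and 0.47 with LPS. The 10 macrophage markers had a median of -0.16 with IL-4. The part of stromal cells in the matrix genes was not tested.

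Of 13 tested matrix metalloproteinase and inhibitor genes, 11 were above 0, with a median of 0.43, and Mmp9, Mmp14, Mmp23 and Timp3 were past the thresholds, all higher (2.02% of all genes). Detected on all 6 arrays were 7 of the 13. With replicate 1 of both genotypes left out, 10 were above 0, the median was 0.35 and 5 were past the thresholds, all higher (3.01% of all genes). The list's median was 0.53 without stimulus and 0.12 with LPS. Mmp9, the gelatinase B gene, was at 7.82, 8.34 and 8.54 on the Nur77-KO arrays and at 6.33, 7.51 and 7.84 on the WT arrays. Nur77-KO replicate 1 lay just below WT replicate 3, and the log2 fold change was 1.01 (SE 0.29, limma, adjusted p = 0.516). Mmp14, a membrane-bound protease gene, stood at 0.63 and was called without replicate 1 of both genotypes (0.77, adjusted p = 0.0234), as was Mmp2, the gelatinase A gene (1.53, adjusted p = 0.0123), which with all arrays stood at 0.90. Between the replicate 1 arrays Mmp2 ran the other way, at -0.37, and over all alternatives its log2 fold change lay between 0.32 and 2.02, with 0.33 under slide as a fixed block. Timp3, which encodes a metalloproteinase inhibitor, was at 6.95, 8.82 and 8.75 on the Nur77-KO arrays and 5.01, 6.75 and 6.60 on the WT arrays, a log2 fold change of 2.05 without overlap (adjusted p = 0.792), and Mmp23 stood at 1.22. Timp3 stood at 1.18 with the mean of its detected probes.

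**Figure D4:**
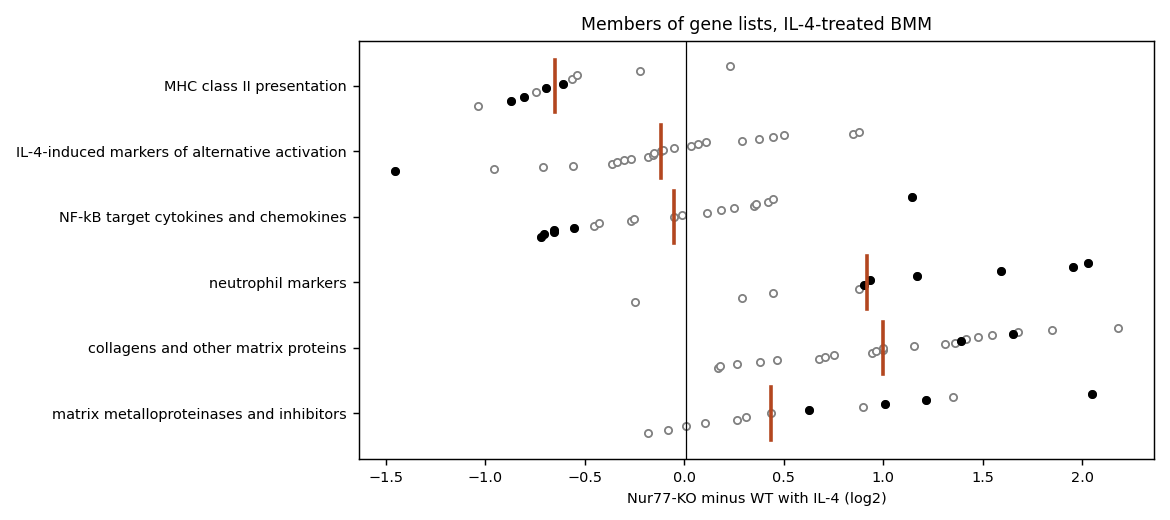
Log2 fold change, Nur77-KO minus WT with IL-4, of each tested member of 6 gene lists. Filled points are past the methods' thresholds, red bars are list medians, and the black line is the median of all tested genes. MHC class II genes lie mostly left of 0 with a median of -0.65, and neutrophil and matrix genes right of it with medians of 0.92 and 1.00.

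Several single genes had arrays that did not overlap and were past the thresholds, in a background of 843 genes (7.66%) without overlap. Rgcc, a cell cycle regulator gene, was at 6.20, 7.10 and 7.22 on the Nur77-KO arrays and was not detected on the WT arrays, where its values were 4.89, 5.24 and 5.44. It was at least 2.50-fold higher in Nur77-KO BMM (limma, adjusted p = 0.189) and was called without replicate 1 of both genotypes (at least 3.29-fold, adjusted p = 0.0411), while its log2 fold change was 0.16 without stimulus, where it was detected on 1 WT array, and 0.27 with LPS. Mxd1, a MAX-binding repressor gene, was at 7.88, 6.08 and 6.30 on the Nur77-KO arrays and not detected on the WT arrays, at least 2.36-fold higher (adjusted p = 0.330). Without stimulus Mxd1 was not detected on any WT array either and was at least 2.40-fold higher, and with LPS, where it was detected on 2 WT arrays, it stood at 1.85.

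Pdpn, the podoplanin gene, was at 9.87, 11.09 and 10.90 on the Nur77-KO arrays and at 9.31, 9.53 and 9.57 on the WT arrays, without overlap. Its log2 fold change was 1.15 (SE 0.23, limma, adjusted p = 0.189), and it was called without replicate 1 of both genotypes (1.44, adjusted p = 0.00107) and with the replicate block (adjusted p = 0.0216). Hyal1, a hyaluronidase gene, stood at 0.85 and was called without replicate 1 of both genotypes (1.04, adjusted p = 0.0234). Plac8 (1.33), Mfap2 (at least 1.66-fold) and Serpina3n (at least 1.60-fold) were also past the thresholds and higher, and were not called in either fit. Mfap2 stood at a log2 fold change of 0.41 with the mean of its detected probes. Mamdc2, at 6.81, 6.95 and 6.64 on the Nur77-KO arrays and 5.28, 5.91 and 5.69 on the WT arrays, and Ly6c1, a monocyte surface protein gene that was not detected on the WT arrays and was at least 1.45-fold higher, were the others of the 12 largest. Without replicate 1 of both genotypes Gprc5b (1.62), Htra1 (1.15) and, not detected on any WT array, 4930533K18Rik and Rspo2 were also called higher. Jaml (-1.12) and C130050O18Rik (-1.14) were called lower, and C130050O18Rik stood at 1.42 between the replicate 1 arrays.

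Pou6f1, a POU homeobox gene that lies on chromosome 15 as Nr4a1 does, was not detected on any Nur77-KO array (4.65, 4.92 and 4.68) and was at 6.62, 5.76 and 5.63 on the WT arrays. Pou6f1 was at least 1.38-fold lower in Nur77-KO BMM with IL-4 (limma, adjusted p = 0.189) and was called without stimulus (at least 2.39-fold lower, adjusted p = 0.0106) and with LPS (at least 1.55-fold lower, adjusted p = 0.0283), where it was not detected on the Nur77-KO arrays either. Ahrr, the repressor of the aryl hydrocarbon receptor, was at 7.99, 6.38 and 6.76 on the Nur77-KO arrays and 8.22, 8.31 and 8.01 on the WT arrays, and Gpr84, a medium-chain fatty acid receptor gene, at 7.99, 6.69 and 6.83 on the Nur77-KO arrays and 8.31, 8.20 and 8.09 on the WT arrays. Both had a Nur77-KO replicate 1 close to WT, and both were called lower without replicate 1 of both genotypes, at -1.59 (adjusted p = 0.0179) and -1.38 (adjusted p = 0.0234).

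Pecam1, an adhesion molecule gene, was at 6.04, 6.18 and 5.78 on the Nur77-KO arrays and at 7.45, 6.74 and 6.69 on the WT arrays, without overlap. Its log2 fold change was -0.96 (SE 0.23, limma, adjusted p = 0.345) with IL-4 and -0.73 without replicate 1 of both genotypes (adjusted p = 0.405). With the mean of its detected probes Pecam1 stood at -0.38, so its probes did not all show a difference of this size. It was not detected on any array without stimulus or with LPS, so its genotype difference there could not be measured. Traf2, a signal adaptor of the TNF receptors, was not detected on any Nur77-KO array and was at least 1.35-fold lower (adjusted p = 0.189). Nfam1, an immune receptor gene, stood at -0.88 (adjusted p = 0.345), without overlap. Gpatch2l (at least 1.50-fold lower) and Ncs1 (at least 1.03-fold lower), both not detected on any Nur77-KO array, were not called.

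The genotype effect with IL-4 was set against the effect in the other states for all 11008 genes. In limma 0 genes (0% of those tested) had a called difference between IL-4-treated and unstimulated BMM, with 218 at an unadjusted p under 0.05, and 0 between IL-4-treated and LPS-treated BMM, with 506 at an unadjusted p under 0.05. Of the 5 genes called with IL-4, all 5 had the same sign without stimulus and 3 were called there (Gfpt1, Tmem181a and Gdf3), against 0.0908% of all genes called without stimulus. With LPS 4 had the same sign and 2 were called (Gfpt1 and Gdf3), against 0.118% of all genes. Of the 36 genes called without replicate 1, 34 had the same sign without stimulus and 6 were called, and 30 had the same sign with LPS and 2 were called. Prickle2 was the gene of the 5 whose sign differed with LPS, at -0.17, where its level was 4.70 to 4.91 on the Nur77-KO arrays and 4.85 to 5.16 on the WT arrays. Neither Prickle2 nor Epm2aip1 was detected on any array with LPS. The differing sign of Prickle2 and the same sign of Epm2aip1 there therefore rest on background values. For Prickle2 the difference of effects between IL-4 and LPS had an unadjusted p of 7.5e-05 and an adjusted p of 0.290 in limma.

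**Figure D5:**
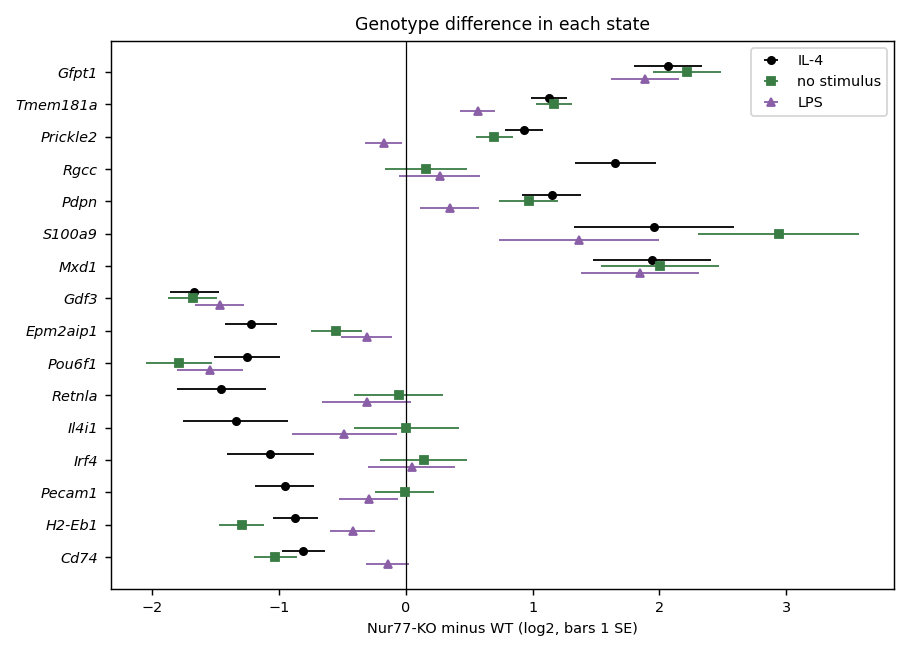
Log2 fold change, Nur77-KO minus WT, of 16 named genes with IL-4, without stimulus and with LPS, with bars of 1 SE from the fit of all arrays. Gdf3 lies at -1.67, -1.68 and -1.47 in the 3 states, while Retnla lies at -1.45 with IL-4. Irf4 and Pecam1 were not detected on any array without stimulus or with LPS, and Retnla on 1, so their points there are background values. Prickle2 and Epm2aip1 were not detected on any array with LPS, so their LPS points are background values too.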

How the data were processed

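The series comprises 18 single-colour arrays in 6 groups of 3 on 6 slides, grouped by the deposited sample labels. GenomeStudio 2011.1 gave the authors each probe's intensity with its detection p-value, and both were deposited. The authors also deposited log2 values after background correction and quantile normalization, for which they name limma 3.10.2 and R 2.14.0. Quantile normalization gives every array the same distribution, so a shift of most genes would not be seen. The deposited log2 values were used as they are. Probe genes came from the platform annotation, with symbols updated to RefSeq (GRCm38.p6), and 10378 unlisted probes and 18 with several symbols were left out.

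Group means over all 18 arrays were fitted with limma 3.58.1 in R 4.3.3 (eBayes, 12 residual and 3.37 prior degrees of freedom), with Benjamini-Hochberg adjustment over 11008 genes and two-sided p-values, and the script was tested on simulated data. Members, gene lists and alternatives were chosen with earlier results of these data known. Genes were named by a rule: called genes, the 12 largest each way among non-overlapping genes past the methods' thresholds and among genes called without replicate 1 of both genotypes, list members with the smallest p or past the thresholds, and genes the study names, of which those that carry a result are given; Anxa4, Arg1, Ccl5, Ciita, Hyal1, Mrc1 and Tia1 lie outside it and were chosen after their values were seen. Replicate numbers may pair the arrays: with group means removed, same-numbered IL-4 arrays correlated across genes at 0.532, 0.321 and 0.450, the pairing coming from the data and the labelled numbers. Replicate 3 of Nur77-KO with 2 of WT (0.327) and 2 of Nur77-KO with 3 of WT (0.277) correlated alike, so that replicates 2 and 3 are not told apart by number. A replicate block was therefore run as an alternative. The number of arrays limits the precision.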

Additional observations from a re-analysis of the deposited data

Results flagged for a closer look

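Probes that the annotation table does not list were left out of the comparison. Of 2973 such probes detected on an IL-4 array, 20 were called between Nur77-KO and WT BMM in the same limma fit, adjusted over them alone (0.673%). The probe ILMN_2469743 was at 7.54, 7.53 and 7.24 on the Nur77-KO arrays and at 4.74, 5.02 and 4.58 on the WT arrays, where it was not detected, a fitted log2 difference of 2.65. Set against the lowest signal among detected probes on each WT array it was at least 3.78-fold higher. The probe ILMN_2631505 was at 8.01, 6.69 and 7.26 on the Nur77-KO arrays and at 4.82, 4.61 and 4.81 on the WT arrays, a fitted difference of 2.57 and at least 3.49-fold higher, since it was not detected on any WT array. The probe ILMN_2699222 was at 5.61, 5.84 and 6.10 on the Nur77-KO arrays and at 4.74, 4.49 and 4.58 on the WT arrays, a fitted difference of 1.25 and at least 1.26-fold higher, again with no WT array above background. All 3 were detected on every Nur77-KO array, and ILMN_2699222 lay at the detection limit on replicate 1. Their genes are not given in the tables used here.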

How the results depend on the processing

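The count of called genes was 5 and ranged with the processing. It was 5 with neqc values from the raw intensities and with slide as a random block. It was 0 with median normalization, with the 6 IL-4 arrays alone, with slide as a fixed block, with the replicate block within the 6 arrays and with a plain t-test, which the methods name for other readouts (364 at an unadjusted p under 0.05, 170 past the thresholds), 3 with cyclic loess, with the mean of a gene's probes and with a trended and robust prior, 8 with the replicate block among the IL-4 arrays in the fit of all arrays, 36 with replicates 2 and 3 alone and other groups kept, and 118 with the 4 arrays of replicates 2 and 3 alone. The cause of these changes was not tested. Leaving out 1 IL-4 array gave 3 to 34 called genes, 34 without Nur77-KO replicate 1 and 18 without WT replicate 1. Under the replicate block in the fit of all arrays Mpo, Pdpn and Bmp1 were added and the 5 genes were all called.

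Genes past the methods' thresholds numbered 403, and 171 with median normalization, 250 with detection on at least 3 arrays, 663 for single probes, 619 with replicates 2 and 3 alone and other groups kept, 949 with their 4 arrays alone, and 440 to 789 with 1 array left out. Median normalization shifted the median of all genes by 0.26 and raised the share of higher genes to 91.2%, against 55.1%. With no detection filter 1 difference of effects between IL-4-treated and unstimulated BMM was called (Cx3cr1). Cx3cr1 was not detected on any IL-4 array, so this difference subtracts from background values and does not show a change of its genotype effect. Without WT replicate 2, 1 difference between IL-4 and LPS was called (0 to 1 over the arrays left out). Of 60 named genes 57 kept their direction in every setting run, which was 20 settings for all but Serpina3n, Npy and Eif2s3y, which the filter of detection on at least 3 arrays removed. Arg1 turned to 0.20 with median normalization and ranged between -0.79 and 0.55 with 1 array left out, Mrc1 turned to -0.047 with cyclic loess and -0.17 with slide as a fixed block and ranged between -0.13 and 0.23 with 1 array left out, and Ccl5 (0.35) ranged between -1.08 and 2.50 with 1 array left out, the highest without WT replicate 1. For the called genes the log2 fold change ranged between 0.72 and 2.51 for Gfpt1, 1.03 and 1.45 for Tmem181a, 0.83 and 1.02 for Prickle2, -1.79 and -1.28 for Gdf3, and -1.36 and -0.34 for Epm2aip1.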

Other observations

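Single probes of genes whose brightest probe did not differ gave further calls with IL-4. In a limma fit of all 16587 probes 6 were called (0.0362%), and 2 of them are of such genes. A second probe of Anxa4, an annexin gene, was at 8.93, 9.43 and 9.52 on the Nur77-KO arrays and 10.86, 11.66 and 11.66 on the WT arrays, a log2 fold change of -2.10, while its brightest probe stood at 0.16. A probe of Tia1, an RNA-binding protein gene, was at 7.48, 6.84 and 6.80 on the Nur77-KO arrays and 6.17, 5.18 and 5.14 on the WT arrays, a log2 fold change of 1.54, and its 2 other probes stood at 0.07 and -0.07.

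Of the 5 called genes, Gdf3, Gfpt1 and Prickle2 lie on chromosome 6. Past the methods' thresholds were 29 of 567 tested genes of chromosome 6 (5.11%) and 28 of 432 of chromosome 15 (6.48%), against 3.66% of all genes. Chromosome 10 (5.35%) and chromosome 9 (5.12%) had shares past the thresholds like that of chromosome 6. Called genes numbered 0 on chromosome 10, 1 on chromosome 9 and 0 on chromosome 15.

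Of 16 tested lipid genes that LXR or PPAR regulate, 12 were above 0, with a median of 0.06, and Scd2, a fatty acid desaturase gene (1.34), and Fabp5, a fatty acid-binding protein gene (0.63), were past the thresholds (2.02% of all genes were, higher) and not called. Fabp5 stood at 0.13 with the mean of its probes. Of 17 interferon response genes 6 were above 0 and none was past the thresholds, and their mean level was 8.15, 6.49 and 6.51 on the Nur77-KO arrays and 7.94, 6.67 and 6.67 on the WT arrays. Cell cycle genes ran the other way on replicate 1, with mean levels of 6.69, 7.87 and 8.00 on the Nur77-KO arrays and 6.27, 8.02 and 7.99 on the WT arrays.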
